A study of Mus musculus with 4 samples.

Results

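The genes described here are 10 receptors and regulators known from quiescent satellite cells, the stem cells of muscle that are marked by Pax7. They are the receptors Calcr, Cxcr4, Tek, Fgfr1, Fgfr4 and Met, the feedback inhibitor Spry1, the membrane-anchored protein Gas1 and the surface glycoproteins Cd34 and Chodl. They were taken by symbol from the 55487 genes in the deposited count and TPM tables, and all 10 were found in both. RNA came from muscle stem cells of mouse skeletal muscle, freshly isolated, in 2 Control and 2 Rbfox2 cKO libraries. The cKO mice carry floxed Rbfox2, the tamoxifen-inducible Cre driver Pax7CreERT2, which restricts deletion to satellite cells, and a Rosa26 EYFP reporter. Rbfox2 binds RNA and controls splicing. Which of these alleles the Control mice carry, and the age, the tamoxifen schedule and the number of animals per library, are not stated in the labels. Whether libraries of a group came from separate animals is not stated either, so p-values cover only the spread among these 4 libraries, part of which may be technical.

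A resting satellite cell lies between the muscle fibre and its basement membrane and reads its surroundings through such receptors. Calcr responds to collagen V and signals through cAMP, Tek (Tie2) is the receptor of angiopoietins, Cxcr4 that of the chemokine Cxcl12, and Fgfr1, Fgfr4 and Met are tyrosine kinase receptors of fibroblast and hepatocyte growth factors that take part in activation and growth. Spry1 restrains signalling below these kinases and is needed for return to quiescence.

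The libraries held from 68884091 to 101997422 estimated counts. The cKO 1 library stood apart, with a median TPM over all genes of 0.771 against 0.312 to 0.437 in the other 3, and the 10 genes are given per library below for that reason. Rbfox2 itself, the targeted gene, stood at 131.3 and 55.98 CPM (library-scaled counts, with TMM factors) in the Control libraries, against 40.04 CPM in cKO 1 and 15.17 CPM in cKO 2 (log2 fold change -1.76, SE 0.35, adjusted p = 0.000252 in edgeR). All 8 satellite cell markers were present with a mean of 1 TPM or more, and with summed levels of 5991 and 6182 TPM in Control and 6590 and 6339 TPM in cKO. The most abundant of them was Myod1, a transcription factor of committed and activated cells, at 2292 to 3042 TPM, while Pax7 stood at 6.995 to 15.95 TPM. Of 7 erythroid markers 5 rose in cKO at an adjusted p under 0.05 in edgeR, where 0.364% of all genes did. Hba-a1 and Hba-a2 were the most abundant, and the 7 had summed levels of 337.3 and 763.5 TPM in Control against 1800 and 1471 TPM in cKO. Their part in the results below was not tested.

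None of the 10 genes passed an adjusted p of 0.05 (Benjamini-Hochberg over all genes tested) in either table. With edgeR's quasi-likelihood test on the counts 0 of 10 were called, against 210 of all 38143 genes tested, or 0.551%. With limma on log2(TPM + 1), where TPM is a level per transcript length, 0 of 10 were called, against 53 of 17210 genes, or 0.308%. At an unadjusted p under 0.05 there were 2 genes by edgeR (Gas1 and Cxcr4), where 1842 of all genes tested, or 4.83%, had such a p. By limma there were 3 (Fgfr1, Chodl and Gas1), where 2572 genes, or 14.9%, had one. DESeq2 also called 0 of the 10. By edgeR 5 genes had a positive and 5 a negative log2 fold change of cKO over Control. The median over the 10 was 0.07, beside 0.06 over all genes tested. On the TPM scale it was 0.18, beside 0.13.

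Although no gene was called, the groups did not overlap for several of them. In normalised counts Fgfr1, Fgfr4 and Gas1 were higher in cKO 1 and cKO 2 than in either Control library, an arrangement that 18.0% of all genes tested also had. They lay below for Cxcr4 alone, as for 13.3% of all genes. In TPM 5 of 10 genes were higher without overlap (Fgfr1, Fgfr4, Gas1, Cd34 and Chodl), beside 32.0% of all genes, and 1 was lower (Cxcr4), beside 15.7%. These shares are large, so the arrangement by itself is not a result about these genes.

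**Figure D1:**
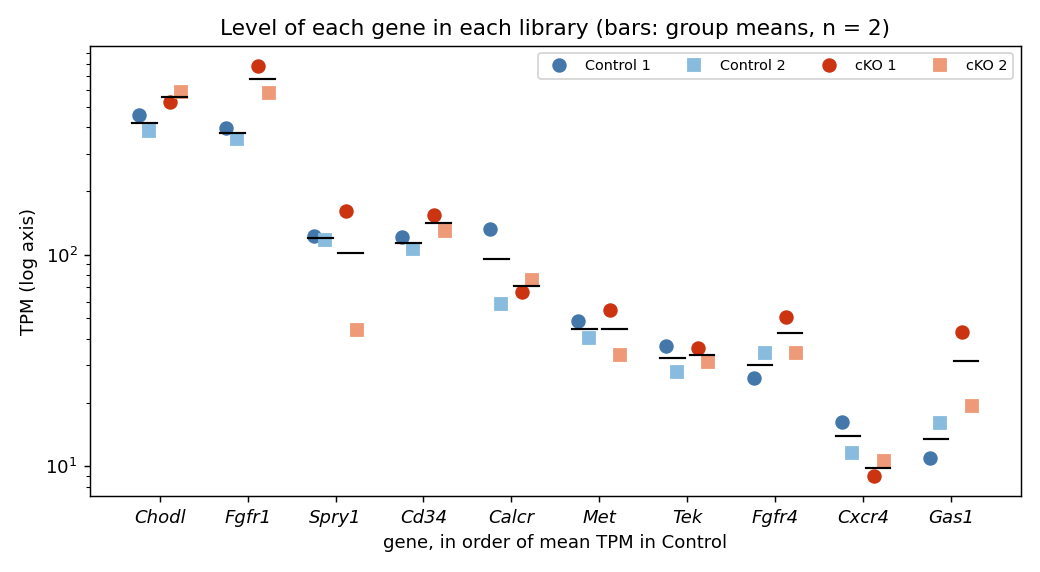
Level of each gene in each library in TPM (log axis), with genes ordered by their mean in Control; points are libraries and short bars are group means (n = 2). Chodl and Fgfr1 lie above 350 TPM in every library and Gas1 and Cxcr4 lie lowest in Control, while Spry1 in cKO and Calcr in Control are the most spread.

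Levels spanned from 13.5 TPM for Gas1 to 420.5 TPM for Chodl in Control. Chodl (420.5 ± 49.8 TPM) and Fgfr1 (374.5 ± 30.4 TPM; SD, n = 2) were the most abundant, at percentile 98.0 and 97.8 of the genes tested in TPM, and their library values overlapped. They were followed by Spry1 (120.2 ± 3.76 TPM), Cd34 (113.9 ± 11.1 TPM) and Calcr (94.99 ± 51.6 TPM), whose ranges overlapped with their neighbours in this order. Met stood at 44.4 ± 5.62 TPM, apart from the genes above and below it. Tek (32.4 ± 6.26 TPM) and Fgfr4 (30.2 ± 5.90 TPM) overlapped, as did Cxcr4 (13.8 ± 3.23 TPM) and Gas1 (13.5 ± 3.54 TPM). In cKO, Fgfr1 (679.8 ± 135.9 TPM) came before Chodl (555.8 ± 42.1 TPM), with overlapping ranges. At the low end Gas1 (31.3 ± 16.9 TPM) came before Cxcr4 (9.81 ± 1.12 TPM), and there the ranges were apart.

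Fgfr1 (ENSMUSG00000031565.18; GRCm38 chromosome 8, 25513654 to 25575718, plus strand) is the main fibroblast growth factor receptor of these cells. Its normalised count was 868.2 and 807.9 CPM in Control 1 and 2 and 1311 and 1374 CPM in cKO 1 and 2. Both cKO libraries were high and each group was tight, with the higher library 1.07 times the lower in Control and 1.05 times in cKO. The difference was 0.68 on the log2 scale (SE 0.39, adjusted p = 1.00 in edgeR), a ratio of 1.6. The edgeR SE draws on a spread shared over genes, so it does not give the spread of Fgfr1 alone. In TPM Fgfr1 stood at 396.0 and 353.0 in the Control libraries, and at 775.9 in cKO 1 and 583.7 in cKO 2, with a log2 difference of 0.85 (SE 0.15, adjusted p = 0.0756 in limma).

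The direction for Fgfr1 held in every alternative fit and the call did not. The gene was called by edgeR with library totals only (0.85, adjusted p = 0.0118), a scaling that moves the median of all genes to 0.25 and calls 0.739% of them. It was also called without cKO 1 (0.73, adjusted p = 0.000871), where 2.26% of all genes were called, and without cKO 2 (0.58, adjusted p = 0.0207), where 5.39% were. In limma it was called with no filter on low values (0.85, adjusted p = 0.00017; 0.742% of all genes), without Control 1 (0.93, adjusted p = 1.32e-05; 2.41%) and without Control 2 (0.76, adjusted p = 0.000643; 3.45%). Fgfr1 was not called by edgeR without either Control library, nor by limma without either cKO library. The calls with a library left out thus came with a lone cKO library in edgeR and a lone Control library in limma. The antisense gene Gm16159 shares 164 exon bases with Fgfr1 and stood at 2.03 to 6.33 TPM, far under the level of Fgfr1; the strand setting of the counting is not stated, so reads in the shared bases cannot be told apart.

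Fgfr4 (ENSMUSG00000005320.9; chromosome 13, 55152640 to 55168759, plus strand) is the other fibroblast growth factor receptor characteristic of muscle progenitors. Its normalised count was 49.2 and 64.8 CPM in Control 1 and 2 and 72.4 and 71.1 CPM in cKO 1 and 2. The groups did not overlap, but the step from Control 2 to cKO was smaller than that between the Control libraries. Their log2 fold change was 0.33 (SE 0.34, adjusted p = 1.00 in edgeR). In TPM Control 2 (34.33) and cKO 2 (34.44) were nearly level.

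Met (ENSMUSG00000009376.15; chromosome 6, 17463800 to 17573980, plus strand), the receptor of hepatocyte growth factor, had 112.3 and 91.7 CPM in Control 1 and 2 and 113.0 and 87.0 CPM in cKO 1 and 2. Each group held a high and a low library and they overlapped fully. Met had a log2 difference of -0.03 (SE 0.34, adjusted p = 1.00 in edgeR).

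Among the other genes of these growth factor pathways, 0 of 18 fibroblast growth factor ligands, receptors and coreceptors were higher and 0 lower, where 0.364% of all genes were called higher and 0.186% lower. Their median was 0.00. The most abundant was Sdc4, a heparan sulphate coreceptor, at 12058 and 11384 TPM in Control and 10958 and 11823 TPM in cKO. Gpc4, another heparan sulphate carrier, ranged from 39.65 to 44.02 TPM and the adaptor Frs2 from 17.44 to 22.71 TPM. In the hepatocyte growth factor list 0 of 12 were called and the median was 0.22. Its most abundant members were Plaur, the urokinase receptor (290.5 and 297.2 TPM in Control, 441.7 and 366.0 TPM in cKO), Plau, the urokinase (71.43 and 71.99, then 59.73 and 60.95 TPM), and the adaptor Grb2 (48.63 and 43.29, then 35.92 and 20.33 TPM).

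**Figure D2:**
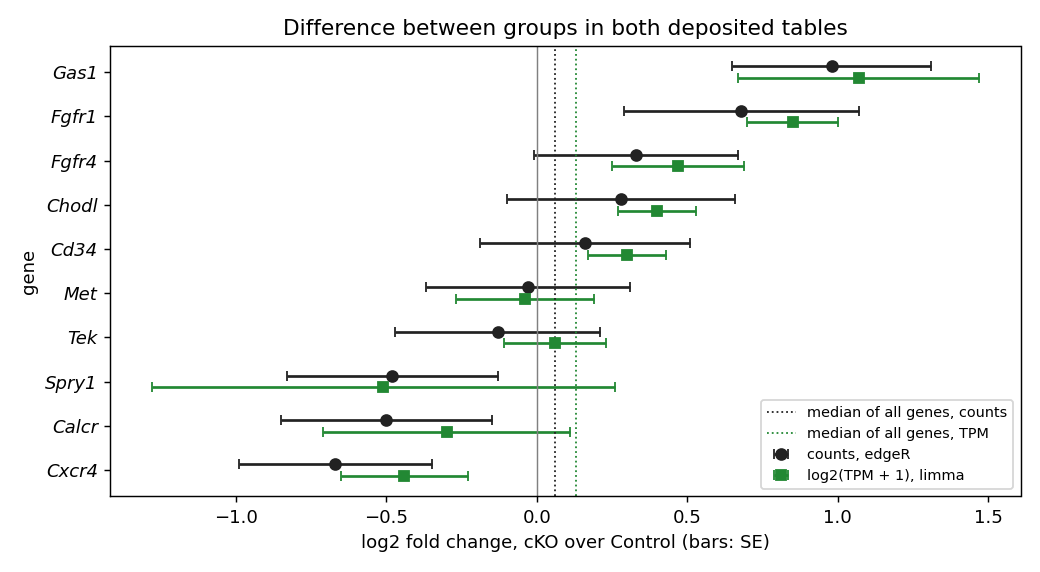
Log2 fold change of cKO over Control with its SE for each gene, from edgeR on counts (black) and limma on log2(TPM + 1) (green); dotted lines mark the medians of all genes, 0.06 and 0.13. Gas1 and Fgfr1 lie farthest to the right in both tables and Cxcr4 farthest to the left in counts, and none passed an adjusted p of 0.05.

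Spry1 (ENSMUSG00000037211.12; chromosome 3, 37639947 to 37644598, plus strand) is the Sprouty protein that limits receptor tyrosine kinase signalling in resting satellite cells. Its normalised count was 183.2 and 173.1 CPM in Control 1 and 2, 176.6 CPM in cKO 1 and 78.2 CPM in cKO 2. In CPM only cKO 2 was low, and cKO 1 lay within the Control range. The ratio between the cKO libraries in CPM, 2.26, was reached or passed by 2.3% of 10579 genes with a mean of at least 4 CPM. For those genes the median ratio in cKO was 1.4. In TPM Spry1 stood at 122.8 and 117.5 in Control, and cKO 1 (160.4) was above and cKO 2 (44.09) below both. The log2 fold change was -0.48 (SE 0.35, adjusted p = 1.00 in edgeR). It rested on cKO 2, at -1.17 without cKO 1 (adjusted p = 2.47e-05) and -0.08 without cKO 2.

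The same library differed in the transcript that the Spry1 values imply. Dividing a count by its TPM gives the mean length of the transcripts counted, once scaled by genes with 1 annotated transcript. For Spry1 this was 2501, 2506 and 2499 bases in Control 1, Control 2 and cKO 1 and 2766 bases in cKO 2. GENCODE M21 lists 3 Spry1 transcripts with the same 313 codons: 2 of 2481 and 2451 bases with 3 exons, and Spry1-202 of 2773 bases with 2 exons. The value of cKO 2 lay at the longest of these and the other libraries lay near the shorter ones. Gm42922, on the opposite strand, shares 710 exon bases with Spry1 and stood at 0.47 to 1.16 TPM.

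Of 11 other feedback inhibitors and targets of this signalling that were tested, 0 were higher and 0 lower, and the median was -0.02. Spry2, a close relative of Spry1, was the most abundant, at 583.3 and 515.8 CPM in Control and 219.3 and 484.7 CPM in cKO (log2 fold change -0.64, SE 0.37, adjusted p = 1.00 in edgeR). Here cKO 1 was the lowest library, the reverse of Spry1. Spred1, another inhibitor of the pathway, had 267.5 and 246.5 CPM in Control and 153.9 and 289.2 CPM in cKO. Dusp6, the phosphatase induced by and acting on ERK, stood at 110.7 and 103.2, then 87.47 and 113.7 CPM.

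Gas1 (ENSMUSG00000052957.8; chromosome 13, 60174405 to 60177365, minus strand), a membrane-anchored protein that arrests growth when expressed and acts as a coreceptor for Hedgehog ligands, had the largest difference of the 10. Its normalised count was 19.3 and 27.7 CPM in Control 1 and 2 and 56.4 and 36.7 CPM in cKO 1 and 2. Both cKO libraries were above both Control libraries, and cKO 1 was the highest. Gas1 had a log2 difference of 0.98 (SE 0.33, adjusted p = 0.266 in edgeR), a ratio of 1.98. In TPM it stood at 10.98 and 15.99 in the Control libraries, and at 43.32 in cKO 1 and 19.36 in cKO 2, and limma gave 1.07 (SE 0.40, adjusted p = 0.315). Without cKO 1 the edgeR value was 0.65 and without Control 2 it was 1.24. It was called in edgeR without cKO 2 (1.19, adjusted p = 0.0183) and in limma without Control 2 (1.33, adjusted p = 7.87e-05).

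Gas1 is also expressed by fibro-adipogenic cells. Of 10 markers of those cells 0 were called, 8 had a positive log2 fold change and the median was 0.27. Dcn (0.27), Lum (0.47), Mfap5 (0.50) and Pdgfra (0.46), named here after seeing their values, did not overlap in CPM and were higher in cKO. That arrangement was found in 18.0% of all genes tested, and in TPM Pdgfra overlapped. Col3a1 (-0.60) did not overlap in CPM either and was lower, as were 13.3% of all genes. The markers had summed levels of 619.2 and 727.3 TPM in Control and 726.9 and 598.9 TPM in cKO, and all 10 had a mean of 1 TPM or more; the most abundant, Dpt and Col3a1, were the ones with a negative value. The part of these cells in the Gas1 difference was not tested. In bulk RNA, a change in the number of cells of a type and a change in RNA per cell cannot be told apart. The implied transcript length of Gas1 was 2950 to 2954 bases in all 4 libraries, close to its transcript of 2961 bases.

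Of 14 partners of Gas1 in GDNF and Hedgehog signalling 0 were higher and 0 lower, and the median was 0.20. The ligand Gdnf had 84.6 and 60.6 CPM in Control and 78.6 and 124.4 CPM in cKO, and the Hedgehog coreceptor Boc at 68.8 and 59.7, then 68.1 and 81.7 CPM. Gfra1, the GDNF receptor that works with the kinase Ret, had 54.2 and 64.1 CPM in the Control libraries, against 23.6 CPM in cKO 1 and 33.6 CPM in cKO 2. Both cKO libraries were below both Control libraries, with a log2 difference of -1.05 (SE 0.33, adjusted p = 0.192 in edgeR).

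RefSeq promoter windows (GRCm38.p6; 250 bases before and 50 after a start) were found for 9 of the 10 genes, in 10 windows; Fgfr1 had none. They were searched on both strands for the core of the Notch effector RBPJ, TGGGAA, the MyoD E-box CAGCTG, and the AP-1 site TGANTCA, and no matches overlapped. The RBPJ core was in 2 of 10 windows (Met and Chodl) and in 25.6% of all 32851 windows. The E-box was in 0 of 10, against 16.3%, and the AP-1 site in 1 of 10 (Met), against 7.81%. A match is a description of letters and not a bound site. Printed here, with motif letters in capitals, are the 250 bases before the start of Gas1 and Cxcr4, the genes with the largest difference in each direction in counts (in TPM Spry1, at -0.51, lay below Cxcr4, at -0.44), and of Chodl, and the 2 short stretches of Met that hold a motif.
Gas1 (chr13:60177536-60177785, minus strand): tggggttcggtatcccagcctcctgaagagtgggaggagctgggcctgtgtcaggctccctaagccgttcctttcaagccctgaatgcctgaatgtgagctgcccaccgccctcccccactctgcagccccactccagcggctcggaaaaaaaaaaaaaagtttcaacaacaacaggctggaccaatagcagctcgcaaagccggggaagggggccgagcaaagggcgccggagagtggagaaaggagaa
Cxcr4 (chr1:128592300-128592549, minus strand): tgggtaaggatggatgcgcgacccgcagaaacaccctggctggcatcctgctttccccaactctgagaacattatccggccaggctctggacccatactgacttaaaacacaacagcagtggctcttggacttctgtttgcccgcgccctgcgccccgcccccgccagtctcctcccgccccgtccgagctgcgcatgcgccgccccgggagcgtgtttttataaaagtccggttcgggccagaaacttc
Chodl (chr16:78930698-78930947, plus strand): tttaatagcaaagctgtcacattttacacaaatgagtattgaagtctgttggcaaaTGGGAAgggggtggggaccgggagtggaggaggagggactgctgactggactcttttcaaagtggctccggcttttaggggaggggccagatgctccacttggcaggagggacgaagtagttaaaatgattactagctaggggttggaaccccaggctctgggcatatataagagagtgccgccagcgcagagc
Met, RBPJ core (chr6:17463923-17463942, plus strand): gcgcgtgTGGGAAggggcgg
Met, AP-1 site (chr6:17463896-17463916, plus strand): gcccggcTGAGTCAcgggccg

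In Chodl the RBPJ core began at position -194 from the RefSeq start, and in Met at -27, with the AP-1 site at -54. In GENCODE M21 the Met gene begins at 17463800, before both Met sites, so by that annotation they lie inside the gene. Chodl and Met did not share a pattern in the data: Met overlapped between the groups on both scales, and Chodl overlapped in counts but not in TPM; neither was called. Gas1 and Cxcr4, whose groups did not overlap, hold none of the 3 motifs in their windows. The same was true of Cd34, Spry1, Tek, Calcr and Fgfr4, so the absence is not particular to them.

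Cxcr4 (ENSMUSG00000045382.6; chromosome 1, 128588199 to 128592293, minus strand), the receptor of the chemokine Cxcl12, guides the movement of muscle progenitors. Its normalised count was 16.2 and 12.3 CPM in Control 1 and 2 and 6.28 and 11.6 CPM in cKO 1 and 2. Both cKO libraries were lower, cKO 2 only slightly below Control 2. Its log2 fold change was -0.67 (SE 0.32, adjusted p = 0.947 in edgeR), a ratio of 0.63. It was -0.28 without cKO 1 and -1.25 without cKO 2 (adjusted p = 0.0191), the only fit in which it was called.

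Cxcr4 is abundant in leukocytes. Of 12 leukocyte markers 0 were called and 10 had a positive log2 fold change. The negative ones were S100a8 (-0.51) and Itgam (-1.96), the latter at 0.53 and 1.47 CPM in Control and 0.29 and 0.22 CPM in cKO, without overlap. Summed levels of the 12 were 44.0 and 62.5 TPM in Control and 100.8 and 57.1 TPM in cKO. Cd68 and Lyz2 were the most abundant. Of the 12, 10 had a mean of 1 TPM or more, and none was listed at 0 in all libraries. The part of leukocytes in the Cxcr4 level was not tested. Of 8 other genes of the Cxcl12 pathway 0 were called and the median was 0.01. Ackr3, the scavenging receptor of Cxcl12, was far more abundant than Cxcr4, at 562.9 and 459.0 TPM in Control and 526.5 and 584.9 TPM in cKO. The G protein subunit Gnai3 ranged from 131.9 to 156.7 TPM and Itch, the ubiquitin ligase of Cxcr4, from 38.76 to 45.93 TPM.

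Calcr (ENSMUSG00000023964.15; chromosome 6, 3685680 to 3764714, minus strand), the calcitonin receptor and a marker of quiescent satellite cells, had 273.0 CPM in Control 1, 124.7 CPM in Control 2, 105.8 CPM in cKO 1 and 176.2 CPM in cKO 2. In CPM Control 1 was the highest library and Control 2 lay among the cKO libraries. The ratio between the Control libraries in CPM was 2.19, reached or passed by 1.5% of the 10579 genes, for which the median ratio in Control was 1.12. In TPM Control 1 (131.5) lay above and Control 2 (58.48) below both cKO libraries (66.27 and 76.2). The log2 fold change was -0.50 (SE 0.35, adjusted p = 1.00 in edgeR). It turned to 0.17 without Control 1 and stood at -0.97 without Control 2. In limma the value without Control 2 was called (-0.88, adjusted p = 0.000335), a fit that keeps Control 1 as the single Control library.

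One and the same intron of Calcr holds the miRNA genes Mir489 and Mir653, and miR-489 is known as a miRNA of quiescent satellite cells. Their mature sequences from RefSeq are printed because Calcr hosts them; the seed, bases 2 to 8, is in capitals, and the 4 seeds differ.
miR-489-3p (chr6:3721922-3721944, minus strand): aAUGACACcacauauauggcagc
miR-489-5p (chr6:3721957-3721981, minus strand): uGUCAUAUgugugaugacacuuucu
miR-653-3p (chr6:3721315-3721335, minus strand): uUCACUGGaguuuguuucagu
miR-653-5p (chr6:3721355-3721375, minus strand): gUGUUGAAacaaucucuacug

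The libraries do not measure mature miRNAs. The row of the Mir489 hairpin held 5 counts in each Control library, 3 in cKO 1 and 1 in cKO 2, and that of Mir653 held 4, 4, 6 and 6. These counts are too low to tell whether either differed between the groups.

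In the calcitonin receptor and collagen V list 0 of 18 genes were higher and 0 lower, and the median was -0.01. Prkar1a, a regulatory subunit of protein kinase A, ranged from 603.7 to 670.2 TPM. Gnas, the G protein subunit that couples the receptor to cAMP, stood at 312.3 and 286.2 TPM in Control and 883.7 and 567.7 TPM in cKO, with a log2 fold change in counts of 0.72 (SE 0.37, adjusted p = 1.00 in edgeR). Col5a2, a chain of collagen V, stood at 94.24 and 84.69, then 98.56 and 77.65 TPM.

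Tek (ENSMUSG00000006386.15; chromosome 4, 94739289 to 94874976, plus strand), the angiopoietin receptor Tie2, had 98.3 and 71.1 CPM in Control 1 and 2 and 67.1 and 87.7 CPM in cKO 1 and 2. The groups overlapped, with a log2 difference of -0.13 (SE 0.34, adjusted p = 1.00 in edgeR). Of 8 other genes of the angiopoietin pathway 0 were called, 6 were positive and the median was 0.42. Angptl2 (9.25 and 8.60, then 12.79 and 14.47 TPM), Tie1 (4.41 and 5.94, then 9.82 and 7.08 TPM) and Angptl1 (5.60 and 9.85, then 5.22 and 4.91 TPM) were the most abundant.

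Tek and Cd34 are also defining genes of endothelium. Of 12 endothelial markers 0 were called, 11 were positive with a median of 0.31, and the summed levels were 158.9 and 200 TPM in Control and 267.9 and 210.5 TPM in cKO. All 12 had a mean of 1 TPM or more, with Cldn5 and Eng the most abundant. The endothelial part of the Tek and Cd34 levels was not tested. Tek stood at 27.97 to 36.83 TPM and Cd34 at 106.1 to 153.2 TPM, beside 44.58 to 68.1 TPM for Cldn5 and 26.9 to 45.07 TPM for Eng.

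Cd34 (ENSMUSG00000016494.9; chromosome 1, 194938819 to 194961279, plus strand), a sialomucin of stem and endothelial cells, had 159.5 and 146.5 CPM in Control 1 and 2 and 148.6 and 194.5 CPM in cKO 1 and 2. Only cKO 2 stood above the Control range, and the log2 fold change was 0.16 (SE 0.35, adjusted p = 1.00 in edgeR). In TPM both cKO libraries (153.2 and 129.1) were above both Control libraries (121.8 and 106.1). The log2 difference there was 0.30 (SE 0.13, adjusted p = 0.346 in limma), with no TMM factor applied to the TPM. Cd34 has a full-length and a truncated protein made by alternative splicing, annotated here as transcripts of 2454 bases with 382 codons and 2554 bases with 325 codons. The implied mean length, 2197 to 2349 bases, lay under both in every library, so gene totals do not tell these forms apart.

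Chodl (ENSMUSG00000022860.15; chromosome 16, 78930948 to 78951733, plus strand), a membrane lectin-like protein, had 657.2 and 544.4 CPM in Control 1 and 2 and 551.3 and 902.7 CPM in cKO 1 and 2. cKO 2 was the highest and cKO 1 lay within the Control range. Chodl had a log2 difference of 0.28 (SE 0.38, adjusted p = 1.00 in edgeR), at 0.60 without cKO 1 (adjusted p = 0.0142) and -0.19 without cKO 2. In TPM the groups did not overlap, at 455.7 and 385.3 in Control and 526.1 and 585.6 in cKO (0.40, SE 0.13, adjusted p = 0.211 in limma). These TPM carry no TMM factor.

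**Figure D3:**
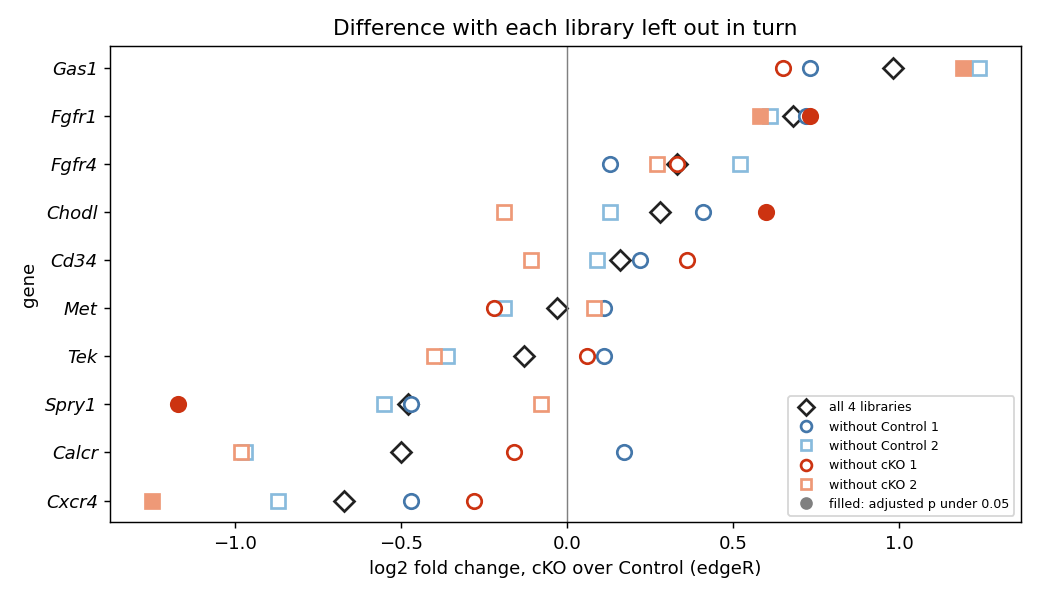
Log2 fold change of cKO over Control by edgeR for each gene with all 4 libraries (diamonds) and with each library left out; filled points have an adjusted p under 0.05. Fgfr1 stays between 0.58 and 0.73 and Gas1 between 0.65 and 1.24, while Spry1 moves from -1.17 to -0.08 and Calcr from -0.98 to 0.17.

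The 2 cKO libraries thus differed from each other for several of these genes. Without cKO 1 the calls were Spry1, Fgfr1 and Chodl, beside 2.26% of all genes, and without cKO 2 they were Cxcr4, Gas1 and Fgfr1, beside 5.39%, so that Fgfr1 was the gene called in both fits. Each such fit has a lone cKO library, whose spread is taken to be that of the remaining group.

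**Figure D4:**
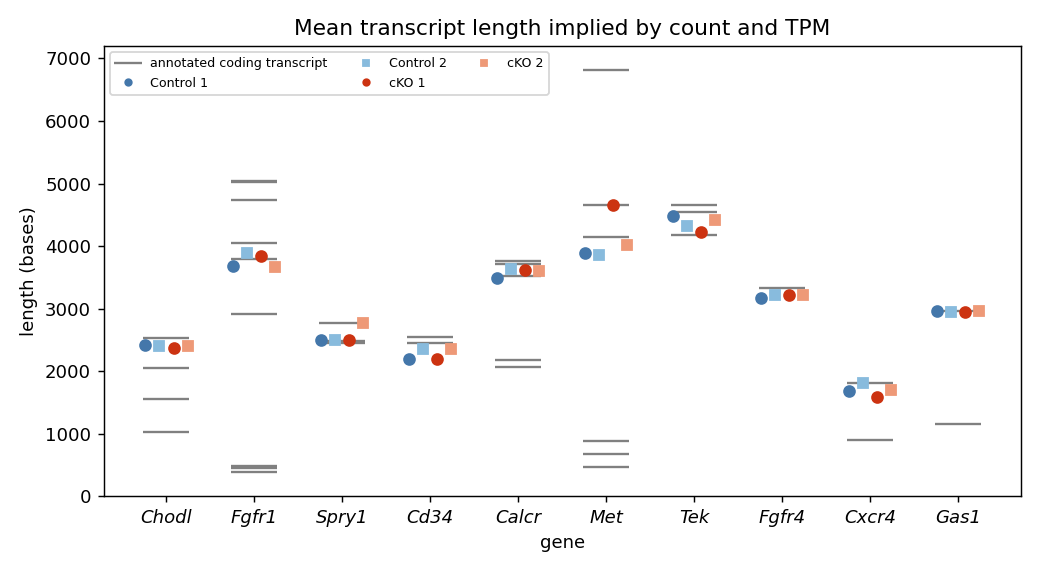
Mean transcript length in bases implied by count and TPM, by gene and library (points), with the lengths of annotated protein-coding transcripts as grey bars. Spry1 in cKO 2 lies at 2766 bases and Met in cKO 1 at 4664 bases, each apart from the other 3 libraries of that gene.

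Between the group means the implied length differed by 0.1% for Gas1, 0.8% for Fgfr4 and -0.9% for Fgfr1 and Chodl. For Cxcr4 it differed by -5.8%, with 1680 and 1806 bases in Control 1 and 2 and 1582 and 1703 bases in cKO 1 and 2, and the groups overlapped. For Met it was 3895 and 3860 bases in Control 1 and 2, 4664 bases in cKO 1 and 4025 bases in cKO 2, where the annotated transcripts with the full 1379 codons have 4140, 4663 and 6809 bases. The value of cKO 1 was the highest. Fgfr1 has 19 annotated transcripts, 11 of them coding, and its implied length of 3668 to 3893 bases overlapped between the groups. Splice forms with near-equal lengths would not be seen in such a value.

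**Figure D5:**
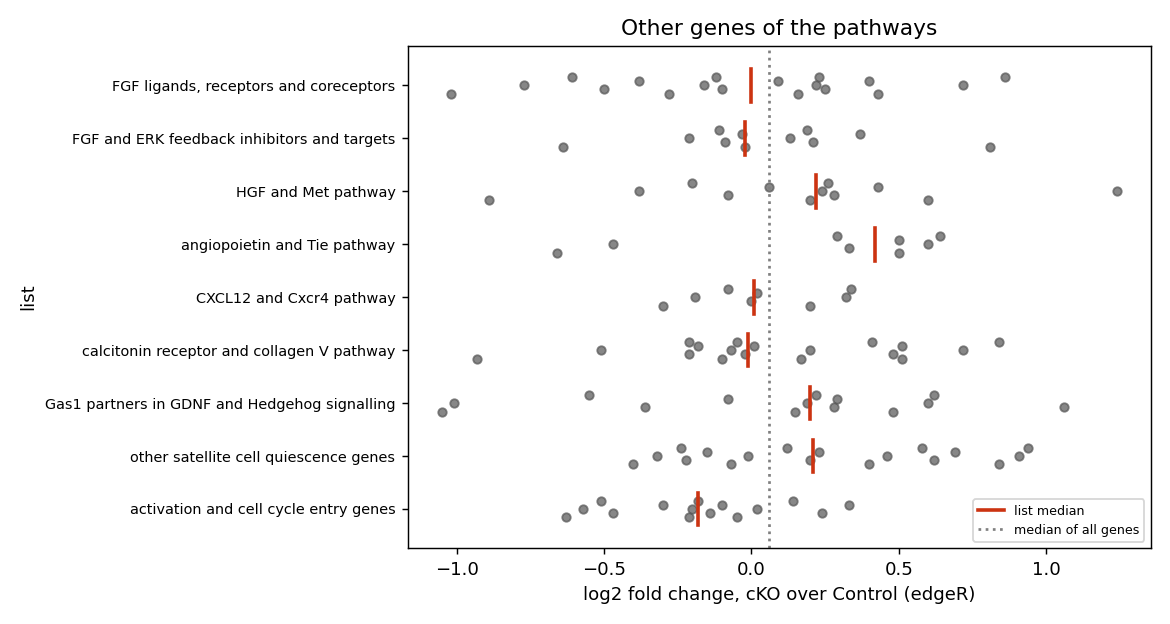
Log2 fold change (edgeR) of the other genes in each pathway list (points), with list medians in red and the median of all genes, 0.06, dotted. Every list lies on both sides of 0, and none of these genes passed an adjusted p of 0.05.

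Among other genes of satellite cell quiescence 0 of 18 were called, 11 were positive and the median was 0.21. The most abundant were Cd9, a tetraspanin (1378 and 1444 TPM in Control, 1308 and 1336 TPM in cKO), Vcam1, an adhesion molecule (1304 and 1248, then 1301 and 1612 TPM), and the tetraspanin Cd82 (1005 and 1086, then 1110 and 915.8 TPM). Of 15 genes of activation and cell cycle entry 0 were called, 4 were positive and 11 negative, and the median was -0.18. After Myod1 the most abundant were Egr1, an immediate early factor (1076 and 1335, then 1466 and 1144 TPM), and Myc (1211 and 1233, then 1214 and 1247 TPM).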

How the data were processed

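Per the submitters' processing notes, the authors used HISAT2 2.1.0 and StringTie 1.3.6 with GRCm38, with no role or order given. The strand setting and annotation release are not stated. The deposited estimated counts per gene are whole numbers. The deposited TPM are per gene and keep no depth. Between 98.7% and 98.9% of genes with 1 annotated transcript and over 200 counts gave a count that, divided by TPM and length, lay within 1% of 1 value per library, which set the implied lengths. GENCODE M21 supplied coordinates.

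Counts were tested with edgeR 4.0.16 in R 4.3.3 (TMM, filterByExpr, robust quasi-likelihood) and TPM with limma 3.58.1 on log2(TPM + 1), where genes averaged 1 TPM or more, whose folds understate low genes. The TPM were not scaled further between libraries. P-values were adjusted over all genes. The SE in edgeR is the fold change over the square root of F. It rests on a spread shared over genes (common biological coefficient of variation 0.373) and reflects a gene's own spread only in part. DESeq2 1.42.0, other scalings, filters and pseudocounts, a replicate block and each library left out were alternatives. The scripts were tested on simulated data.

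The 10 genes and all lists were chosen with earlier results of these data known. Genes named are the 10, Rbfox2, and from each pathway list the called members or else the 3 with the highest mean TPM, and from each marker list the 2 highest; Pax7 and genes overlapping the 10 were added after their values were seen. One listed gene, Spry3, had no unique row. Other markers, for which 0 were called, were mural (8; Acta2, Rgs5) and mature fibre (10; Acta1, Tnnt3) genes, with summed levels of 161.8 to 206.7 and 50.2 to 80.9 TPM. One further marker list is not reported here.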

Additional observations from a re-analysis of the deposited data

How the results depend on the processing

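The 10 genes kept 0 calls by edgeR with DESeq2 size factors, 3 other filters, DESeq2 and the replicate block, and 1 with library totals only; leaving out a library gave 0 to 3. By limma they kept 0 calls with other pseudocounts, a mean TPM of at least 5 and the replicate block, and 1 with no filter; leaving out a library gave 0 to 3. Over all genes, edgeR's 210 calls became 119 with DESeq2 size factors, 28 with no filter, 60 and 14 with minimums of 1 and 5 CPM in 2 libraries, 96 in DESeq2 and 51 to 2267 with a library left out (51 without Control 1, 56 without Control 2, 896 without cKO 1, 2267 without cKO 2). With the replicate block they became 96; same-numbered libraries had deviations with a correlation of -0.179. They share the number and the L01 or L02 part of their library code, whose meaning is not stated, and libraries of a group share its last part. A crossed pairing, chosen after seeing the data, gave 243. The cause of these shifts was not tested.

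Directions turned only where a value was small or 1 library was left out. By edgeR, Met turned to 0.18 with library totals only, 0.09 with a minimum of 1 CPM and 0.14 with 5 CPM, and Tek to 0.01 with library totals only. With a library left out the edgeR ranges were -0.22 to 0.11 for Met, -0.40 to 0.11 for Tek, -0.98 to 0.17 for Calcr, -0.11 to 0.36 for Cd34 and -0.19 to 0.60 for Chodl. Those of limma were -0.88 to 0.28 for Calcr, -0.38 to 0.31 for Met, -0.14 to 0.25 for Tek and -1.43 to 0.41 for Spry1. Fgfr1, Fgfr4, Gas1 and Cxcr4 kept their direction in all of these fits. Whether depth or the spread between libraries limits the calls was not tested.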

Other observations

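Some genes outside the naming rule, chosen after their values were seen, had non-overlapping groups and an unadjusted p under 0.05 by edgeR, with no adjusted p under 0.05. Of all genes tested, 18.0% were higher and 13.3% lower without overlap in CPM, and 4.83% had such an unadjusted p. The genes below are a selection and not all that met both conditions. Ret, the kinase that works with Gfra1 and whose signalling Gas1 can modulate, was at 25.3 and 44.8 CPM in Control and 13.5 and 21.4 CPM in cKO (log2 fold change -1.01, SE 0.33, adjusted p = 0.217 in edgeR). Calcrl, the relative of Calcr that forms adrenomedullin and CGRP receptors, was at 100.8 and 96.9 CPM in Control and 35.9 and 67.8 CPM in cKO (-0.93, SE 0.34, adjusted p = 0.424 in edgeR). Spred2, an inhibitor of the ERK pathway, was at 4.90 and 5.18 CPM in Control and 10.5 and 7.16 CPM in cKO (0.81, SE 0.33, adjusted p = 0.625 in edgeR). In the list of other quiescence genes, Pax7, the defining factor of satellite cells, was at 26.5 and 22.7 CPM in Control and 38.9 and 49.3 CPM in cKO (0.84, SE 0.33, adjusted p = 0.556 in edgeR). Hes1, a target of Notch signalling, was at 13.4 and 29.0 CPM in Control and 40.3 and 40.8 CPM in cKO (0.94, SE 0.33, adjusted p = 0.346 in edgeR). The receptor Notch1 was at 45.5 and 49.3, then 72.8 and 80.0 CPM (0.69, SE 0.34, adjusted p = 0.975 in edgeR). Cdkn1c (0.91) of the same list also met both conditions. Without such a p, Notch3, Heyl, Rb1 and Dag1 of that list were higher without overlap, and Itga7, Hey1 and Cd82 were lower.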
